A study of Mus musculus with 8 samples.

Results

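The masses described here are those of C20 oxylipins: rows of the deposited mass table that lie within 3 ppm of a neutral formula with 20 carbons, 3 to 6 oxygens and an even number of hydrogens from 28 to 36. Of the 20 formulas, 15 were matched, by 25 of the 2429 rows, with errors from -0.45 to 0.79 ppm (median size 0.44 ppm). Acetonitrile extracts of faeces from female C57BL/6 mice of matched age were measured by direct-infusion FT-ICR mass spectrometry, which gives precise masses but cannot separate isomers. The 2 groups were 4 samples taken before any treatment (untreated) and 4 taken 24 h after oral gavage with 20 mg of the antibiotic streptomycin. Treatment and time of collection cannot be told apart. No label ties a sample to a mouse, so the p-values cover only the variation among these 8 samples, some of which may be technical. All intensities are relative, on a linear scale, and since the ions behind each value are not counted in the table, depth is unknown and no counting interval is given.

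Eicosanoids are signalling lipids made when arachidonic acid and related C20 fatty acids, released from membrane phospholipids by phospholipase A2, are oxidised. Cyclooxygenases lead to prostaglandins and thromboxanes, lipoxygenases to hydroxy acids (HETEs) and leukotrienes, and cytochrome P450 enzymes to epoxides and their diols. In the gut, prostaglandin E2 is known for its part in mucosal protection and secretion, and leukotriene B4 for recruiting neutrophils. A formula is not an identification: C20 diterpenes of plants share several of these formulas (carnosic acid is C20H28O4), as do hydroxylated retinoic acids (C20H28O3) and a mixed phthalate plasticiser (butyl octyl phthalate, C20H30O4). The names below stand for formulas, and which isomers contributed was not tested.

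As deposited, the C20 rows kept nearly the same summed intensity, but the balance among them differed between the groups. The sums per sample here are not scaled to the calibrants, whose rows were 1.31-fold and 1.37-fold higher in streptomycin samples. With their rows summed, 2 of the 3 matched formulas with 3 oxygens, those of the HETEs and of leukotriene A4, fell after streptomycin. All 5 formulas with 6 oxygens, among them those of thromboxane B2 and of hydroxylated prostaglandins, were higher, 3 of them listed after streptomycin alone, where 52.5% of all features in that fit were higher and 37% lower. Of the 7 with 4 or 5 oxygens 1 was lower and 1 higher, and 5, which include those of leukotriene B4 and prostaglandin E2, did not pass the test. Both falls with 3 oxygens came through a row listed in untreated samples alone, and the other row of each formula did not pass. No row with 6 oxygens was listed in both groups. The direction of change also went with which of the 2 rows of a formula was the lighter, as given below. Per sample the 25 rows summed to 31.0, 37.8, 35.3 and 32.5 in untreated and 37.2, 41.0, 36.6 and 34.1 in streptomycin samples, which is 0.155% to 0.190% of a sample's total intensity. The 3-oxygen rows summed to 12.9 ± 1.55 (SD, n = 4) in untreated and 4.34 ± 0.769 in streptomycin samples, and the 6-oxygen rows to 1.84 ± 0.527 and 13.2 ± 3.28. The groups did not overlap for either sum. For 4 and 5 oxygens the sums were 10.7 ± 0.784 and 8.72 ± 1.14 in untreated and 10.0 ± 1.21 and 9.70 ± 0.697 in streptomycin samples, and the groups overlapped.

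**Figure D1:**
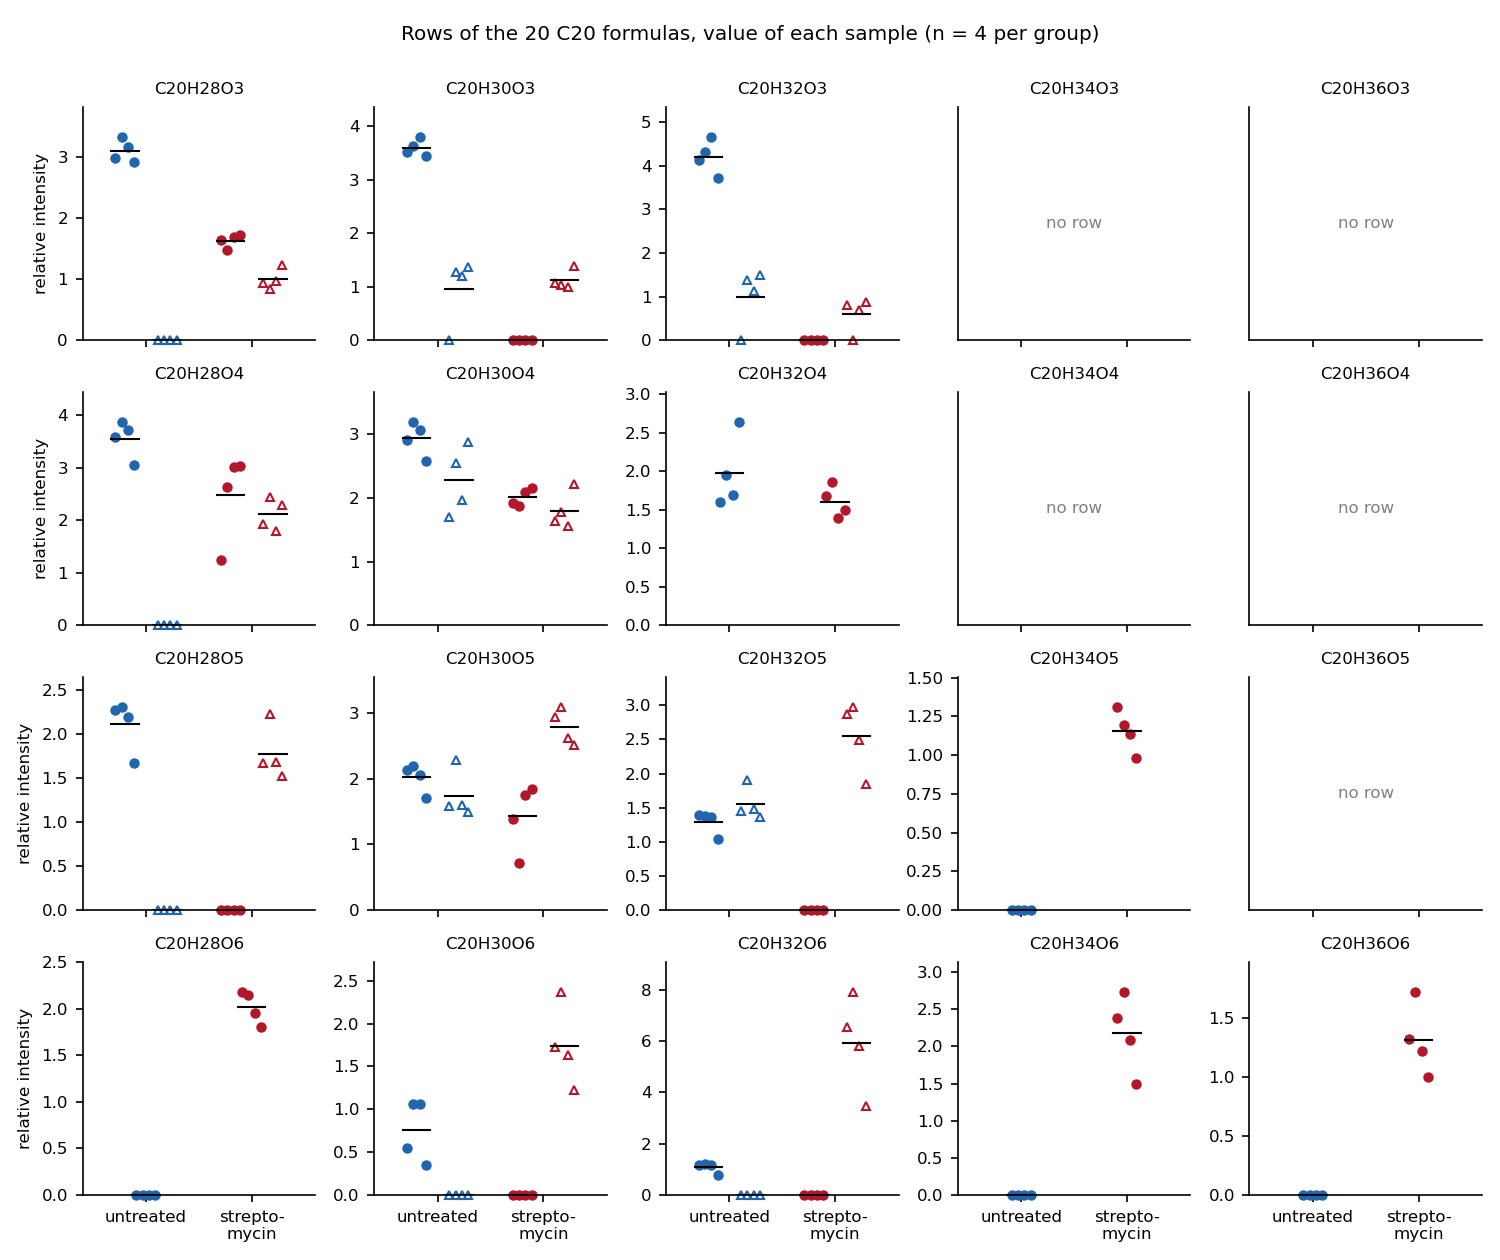
Relative intensity (linear axis from 0, scaled per panel) of every C20 row in each sample, in a grid of formulas with oxygens increasing downward and hydrogens to the right. Filled circles are the only or the lighter row of a formula, open triangles the heavier row, and lines are means of 4 samples. The heavier row of C20H32O6 sits between 3.47 and 7.90 in streptomycin samples and at 0 in untreated samples, and 5 panels have no row.

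The members were weak signals. Their listed sample values ran from 0.345 to 7.90, with a median of 1.78 against 2.08 over all rows. The 2 acquisitions of a sample differed by a median of 1.02-fold and at most 1.26-fold over the 133 C20 values listed in both, and 4 of 137 values rest on 1 listed acquisition. An unlisted acquisition counts as 0 and lowers the mean of its sample. Over the whole table, untreated samples listed 1210 to 1270 rows and streptomycin samples 1633 to 1768. The summed intensity was 19761 to 20140 and 21600 to 23221. The 2 rows that match ions of the calibrant mix, which was added in set amounts, were higher in streptomycin samples, by 0.39 ± 0.11 and 0.46 ± 0.12 (log2, SE). Samples of a group differed by a median of 1.14-fold to 1.42-fold, more than the 1.00-fold to 1.06-fold between acquisitions of a sample.

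Differences were tested with limma over all 2429 rows on log2 values, after a sample at 0 was given the lowest intensity of the table, 0.1476, and rows were called at a Benjamini-Hochberg adjusted p under 0.05. By this test 11 of the 25 C20 rows were higher and 8 lower in streptomycin samples, where 52.4% of all rows were higher and 37% lower. Either way 19 of 25 were called, against 89.5% of all rows, and the groups did not overlap for 19 of 25, against 76.4%. Each of these shares of the C20 rows lay at or below that of all rows. A row listed in 1 group only passes once 0 is filled in, and no fold is given for it. Untreated samples alone listed 6 of the C20 rows (26.6% of all rows), and streptomycin samples alone listed 9 (47.3% of all rows). Among the 10 rows listed in both groups, 2 were higher and 2 lower, where 21.2% of all such rows were higher and 40.9% lower. Their median log2 change was -0.43, and that of all 633 such rows -0.45. The groups did not overlap for 4 of these 10 rows, against 59.7% of the 633.

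Of the 15 formulas 10 stood on 2 rows only 0.1 to 0.3 mDa apart, which is within the 2 ppm mass accuracy the study states. The ion mode behind a row is not recorded in the table. The direction of change went with the position of the row. Of the 10 lighter rows 8 were lower, none higher and 2 did not pass, and 6 were listed in untreated samples only. Of the 10 heavier rows 7 were higher, none lower and 3 did not pass, and 5 were listed in streptomycin samples only. By group means the lighter row was lower and the heavier row higher in 8 of the 10 C20 pairs, and both were lower in the other 2. Among 131 other pairs of neighbouring rows within 1 ppm in the table, 18 had that pattern, 12 the opposite one, 46 had both lower and 55 both higher. Neighbouring rows at the same mass were left out of the 131. The part that ion mode or the alignment of masses has in this was not tested. The rows of a formula were therefore also summed per sample and fitted in place of the rows: 6 of the 15 formulas were then higher (52.5% of that table) and 3 lower (37%), and 6 did not pass.

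Of the formulas with 3 oxygens, C20H32O3 is the formula of the HETEs, made by lipoxygenases and cytochrome P450, and of the epoxyeicosatrienoic acids. Its lighter row, 320.2350 Da, was at 4.14, 4.31, 4.66 and 3.72 before treatment and at 0 in all 4 streptomycin samples. Its heavier row, 320.2353 Da, was at 0, 1.37, 1.13 and 1.499 in untreated and 0.812, 0, 0.690 and 0.881 in streptomycin samples, and did not pass (limma adjusted p = 0.57, with both zeros filled in). The sum of the 2 rows was higher in every untreated sample than in any streptomycin sample, through the row at 320.2350 Da. That sum went from 5.21 ± 0.753 to 0.596 ± 0.405 (SD, n = 4; limma adjusted p = 0.000744, with 1 streptomycin sample filled in). Without that sample, streptomycin replicate 2, the log2 change was -2.71 (limma adjusted p = 2.12e-06).

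C20H30O3 is the formula of leukotriene A4, the unstable epoxide from which the other leukotrienes are made, of oxo-eicosatetraenoic acid and of the hydroxy acids of eicosapentaenoic acid. At 318.2195 Da it was at 3.52, 3.63, 3.80 and 3.45 in untreated samples and listed at 0 in streptomycin samples. At 318.2196 Da it was at 0, 1.27, 1.21 and 1.37 in untreated and 1.06, 1.03, 1.00 and 1.39 in streptomycin samples, which overlap (limma adjusted p = 0.46, with the 0 filled in). The summed formula fell from 4.56 ± 0.696 to 1.12 ± 0.180, a 4.08-fold difference (limma log2 change -2.03 ± 0.16 SE, adjusted p = 6.52e-06). Most of the untreated sum is 318.2195 Da, while the streptomycin sum is 318.2196 Da alone. This largely sets different rows against each other, and if they are different ion modes it is not a fold change of 1 signal.

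C20H28O3, the formula of deoxy-prostaglandin J2, the end product of the dehydration of prostaglandin D2, had 1 lower row, while its sum did not pass. Its lighter row, 316.2038 Da, was at 2.98, 3.32, 3.15 and 2.92 in untreated and 1.64, 1.47, 1.68 and 1.72 in streptomycin samples, with no overlap (limma log2 change -0.93 ± 0.09 SE, adjusted p = 2.83e-05). Its heavier row, 316.2040 Da, appeared only after streptomycin, at 0.939, 0.844, 0.974 and 1.23. The sum was at 3.09 ± 0.182 and 2.63 ± 0.260, and missed the threshold (limma adjusted p = 0.0586), which it passed without streptomycin replicate 4 (limma log2 change -0.30, adjusted p = 0.0201) and after scaling to the calibrants (-0.66, limma adjusted p = 0.00428), while after division by the median ratio it turned to 0.14. Formulas with 3 oxygens and 34 or 36 hydrogens, those of hydroxy acids of dihomo-gamma-linolenic and eicosadienoic acid, had no row within 3 ppm.

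With 4 oxygens, 3 formulas were matched and 1 of them was lower. C20H30O4 is the formula of the cyclopentenone prostaglandins A2, B2 and J2, which form from prostaglandins E2 and D2 by loss of water. Its row at 334.2144 Da was at 2.90, 3.19, 3.07 and 2.58 in untreated and 1.92, 1.87, 2.09 and 2.16 in streptomycin samples, with no overlap (limma log2 change -0.54 ± 0.10 SE, adjusted p = 0.00152). Its row at 334.2145 Da overlapped between the groups, at 2.28 ± 0.542 and 1.80 ± 0.292 (limma adjusted p = 0.159). The sum fell from 5.21 ± 0.501 to 3.81 ± 0.380 (limma log2 change -0.45 ± 0.11 SE, adjusted p = 0.0069). Neither call held after division by the median ratio (limma adjusted p = 0.143 for the row and 0.512 for the sum).

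C20H32O4, the formula of leukotriene B4, of other dihydroxy acids and of the hydroperoxides made by lipoxygenases, stood on 1 row at 336.2303 Da. It was at 1.61, 1.95, 1.69 and 2.64 in untreated and 1.67, 1.86, 1.39 and 1.49 in streptomycin samples. The groups overlapped and the test was not passed (limma log2 change -0.28 ± 0.18 SE, adjusted p = 0.175), although it was passed on the calibrant scale (-0.70, limma adjusted p = 0.00316), while after division by the median ratio the change turned to 0.10. C20H28O4 had a lighter row, 332.1988 Da, at 3.59, 3.87, 3.71 and 3.05 in untreated and 1.24, 2.63, 3.01 and 3.04 in streptomycin samples. The groups did not overlap, but the test was not passed (limma adjusted p = 0.0853). Streptomycin replicate 1 rests on 1 acquisition; with the mean over listed acquisitions the row was lower (log2 change -0.35, limma adjusted p = 0.0167). Its heavier row, 332.1989 Da, appeared only after streptomycin, at 1.93, 2.44, 1.79 and 2.30. The sum, 3.56 ± 0.354 and 4.59 ± 0.976, did not pass (limma adjusted p = 0.107) but did without streptomycin replicate 1 (log2 change 0.52, limma adjusted p = 0.00393), after division by the median ratio (0.72, limma adjusted p = 0.00625) and with the first acquisition alone (0.46, limma adjusted p = 0.00349). On the calibrant scale it turned to -0.07. No row matched the formula of the dihydroxyeicosatrienoic acids, C20H34O4, or C20H36O4.

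The 5-oxygen formulas are those of the classical prostaglandins. C20H32O5, shared by prostaglandins E2, D2 and H2, thromboxane A2 and lipoxin A4, had a row at 352.2251 Da at 1.40, 1.37, 1.37 and 1.05 in untreated samples and at 0 in all streptomycin samples. The row at 352.2252 Da was at 1.46, 1.91, 1.49 and 1.36 in untreated and 2.87, 2.97, 2.49 and 1.85 in streptomycin samples. It rose by test, although the lowest streptomycin sample lay below the highest untreated one (limma log2 change 0.70 ± 0.19 SE, adjusted p = 0.00863). Summed over both rows this formula showed no difference past the threshold: it was at 2.86, 3.29, 2.86 and 2.40 in untreated and 2.87, 2.97, 2.49 and 1.85 in streptomycin samples (limma log2 change -0.18 ± 0.18 SE, adjusted p = 0.364). The direction of that sum depends on the scaling: it was lower on the calibrant scale (-0.60, limma adjusted p = 0.0155) and at 0.20 after division by the median ratio (limma adjusted p = 0.345).

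C20H30O5, the formula of prostaglandin E3, of keto-prostaglandin E2 and of resolvin E1, also had a higher row and a sum that did not pass. Its row at 350.2096 Da rose from 1.59, 2.28, 1.605 and 1.49 to 2.95, 3.09, 2.62 and 2.52, with no overlap (limma log2 change 0.70 ± 0.16 SE, adjusted p = 0.0037). Its row at 350.2094 Da was at 2.02 ± 0.217 and 1.43 ± 0.513 and did not pass (limma adjusted p = 0.0975), but was lower with the mean over listed acquisitions (log2 change -0.33, limma adjusted p = 0.041). The sum was at 3.76 ± 0.526 and 4.22 ± 0.275 (limma adjusted p = 0.207). Its direction depends on the scaling: it was higher after division by the median ratio (log2 change 0.55, limma adjusted p = 0.00159) and at -0.24 on the calibrant scale. After scaling to the calibrants, the rises at 350.2096 and 352.2252 Da no longer passed (log2 changes 0.28 and 0.28, limma adjusted p = 0.125 and 0.175).

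C20H34O5, the formula of prostaglandins F2alpha and E1, was listed in streptomycin samples only, at 1.31, 1.19, 1.14 and 0.980 (354.2408 Da). Its call rests on the value put in for 0: with 1 in its place the log2 difference was 0.20 and did not pass (limma adjusted p = 0.125). C20H28O5 was split: untreated samples had only the row at 348.1938 Da, at 2.11 ± 0.298, and streptomycin samples only that at 348.1939 Da, at 1.78 ± 0.310. The sum did not pass (limma adjusted p = 0.174), but did without streptomycin replicate 2 (log2 change -0.37, limma adjusted p = 0.0356). C20H36O5, the formula of prostaglandin F1alpha, had no row.

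All 5 formulas with 6 oxygens were matched and all 5 were higher as sums, against 52.5% of all features in that fit. C20H28O6, C20H34O6 and C20H36O6 were listed in streptomycin samples only, so they pass once 0 is filled in. C20H30O6 and C20H32O6 each stood on a different row in each group, and as single rows their untreated ones were called lower. The most intense of the 5 formulas was C20H32O6, the formula of prostaglandin G2, of hydroxylated prostaglandin E2 and of dehydro-thromboxane B2. In untreated samples it was listed at 368.2200 Da alone, at 1.17, 1.22, 1.15 and 0.796. In streptomycin samples it was listed at 368.2201 Da alone, at 6.54, 7.90, 5.78 and 3.47. The sums, 1.08 ± 0.193 and 5.92 ± 1.85 (SD, n = 4), did not overlap and differed 5.47-fold (limma log2 change 2.41 ± 0.27 SE, adjusted p = 5.87e-05). This difference, and any ratio with this formula, sets different rows against each other, and if they are different ion modes it is not a fold change of 1 signal; their ion modes are not known. C20H30O6, the formula of carboxy-leukotriene B4, the oxidised form in which leukotriene B4 is inactivated, was split in the same way between 366.2044 and 366.2045 Da. Its sum rose from 0.550, 1.06, 1.06 and 0.345 to 1.73, 2.37, 1.63 and 1.23 (limma log2 change 1.32 ± 0.40 SE, adjusted p = 0.0153). That call ended on the calibrant scale (limma adjusted p = 0.0519) and with the second acquisition alone (limma adjusted p = 0.109).

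The other 3 formulas with 6 oxygens were listed in streptomycin samples only. C20H34O6, the formula of thromboxane B2, the stable product of platelet thromboxane, and of keto-prostaglandin F1alpha, the stable product of prostacyclin, was at 2.39, 2.73, 2.09 and 1.498 (370.2357 Da). C20H28O6 was at 2.18, 2.14, 1.95 and 1.81 (364.1888 Da) and C20H36O6 at 1.33, 1.72, 1.23 and 0.998 (372.2514 Da). With 1 in place of 0 the row of C20H36O6 no longer passed (log2 difference 0.37, limma adjusted p = 0.0682). Rows heavier by the exchange of sodium for potassium were listed for 2 of these formulas. For 370.2357 Da it was 386.2096 Da, at 0.716 ± 0.479 in untreated samples and 0 in the others. For 372.2514 Da there were 2, 388.2251 Da in untreated samples alone, at 2.88 ± 0.627, and 388.2252 Da in streptomycin samples alone, at 1.33 ± 0.204. The rows of C20H32O3 had a row 1 potassium spacing lighter, 282.2794 Da, in untreated samples alone, at 1.68 ± 0.102. Whether any of these rows are other ion forms of the same compounds was not tested. No row matched a sodium or hydrogen chloride form of any of the 20 formulas.

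Formulas that differ by a single structural step were then compared within samples. A pair was formed wherever 2 formulas with a value in all 8 samples differ by 1 oxygen or by H2. The log2 ratio of their summed rows was taken in each sample, which does not depend on the scaling of the sample, and compared between the groups by an exact two-sided permutation test. With 4 against 4 samples the smallest p is 0.0286; intervals come from inverting that test and cover 97.1%. The 10 formulas with such values gave 13 pairs, which share formulas, and 8 of them passed after Benjamini-Hochberg adjustment, each with p = 0.0286 (exact permutation, adjusted p = 0.0464) and with no overlap between the groups. As no p can be smaller, whether pairs at it pass depends on how many of those compared together reach it, here and below.

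An added oxygen went with a relatively higher level after streptomycin in 4 of 7 pairs, and with a lower one in 1. The largest difference was that of C20H32O6 over C20H32O5, a log2 ratio that went from -1.41 ± 0.14 to 1.18 ± 0.20 (SD, n = 4; difference 2.59, interval 2.21 to 3.01). Its C20H32O6 comes from 368.2200 Da alone in untreated and from 368.2201 Da alone in streptomycin samples. C20H30O4 against C20H30O3 differed by 1.57 (1.27 to 1.86), C20H30O5 against C20H30O4 by 0.63 (0.31 to 1.06), and C20H28O4 against C20H28O3 by 0.59 (0.03 to 1.06). C20H28O5 against C20H28O4 differed by -0.60 (-1.14 to -0.05). In these pairs C20H30O3 comes from 318.2196 Da alone in streptomycin samples, and C20H28O5 from a different row in each group. The streptomycin sums of C20H28O4 and C20H28O3 include rows listed in those samples only, at 332.1989 and 316.2040 Da. From rows listed in every sample, C20H28O4 against C20H28O3 differed by 0.32 (-0.68 to 0.77), with exact permutation p = 0.4 and adjusted p = 0.6. The prostaglandin E2 formula and the leukotriene B4 formula, C20H32O5 and C20H32O4, were not shown to differ (0.10, interval -0.52 to 0.97; exact permutation p = 0.743, adjusted p = 0.743). C20H30O6 against C20H30O5 also missed the threshold (1.14, interval -0.04 to 2.53; exact permutation p = 0.0571, adjusted p = 0.0825).

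Added H2 had no common direction. C20H30O3 changed by -1.79 relative to C20H28O3 (interval -2.13 to -1.33) and C20H30O4 by -0.80 relative to C20H28O4 (-1.31 to -0.19), while C20H32O6 changed by 1.09 relative to C20H30O6 (0.29 to 1.80). C20H32O6 and C20H30O6 were each listed on a different row in each group, and unlisted acquisitions lower the untreated values of C20H30O6. The streptomycin sums of C20H28O3 and C20H28O4 include rows listed in those samples only. From rows listed in every sample, C20H30O4 against C20H28O4 differed by 0.06 (-0.28 to 0.94). The other 3 pairs did not pass, with differences of 0.43 (-0.18 to 0.80) for C20H30O5 against C20H28O5, 0.17 (-0.50 to 0.60) for C20H32O4 against C20H30O4 and -0.35 (-0.88 to 0.09) for C20H32O5 against C20H30O5 (exact permutation adjusted p = 0.111, 0.34 and 0.135). With the second acquisition alone 11 pairs could be compared and none passed (smallest exact permutation adjusted p = 0.0786), against 9 of 11 with the first alone. When only rows listed in all 8 samples were used, 6 pairs remained and none passed, 2 of them at the smallest p: C20H30O5 against C20H30O4 differed by 1.24 (0.71 to 1.66) and C20H32O5 against C20H32O4 by 0.98 (0.34 to 1.80; exact permutation adjusted p = 0.0857 for both).

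**Figure D2:**
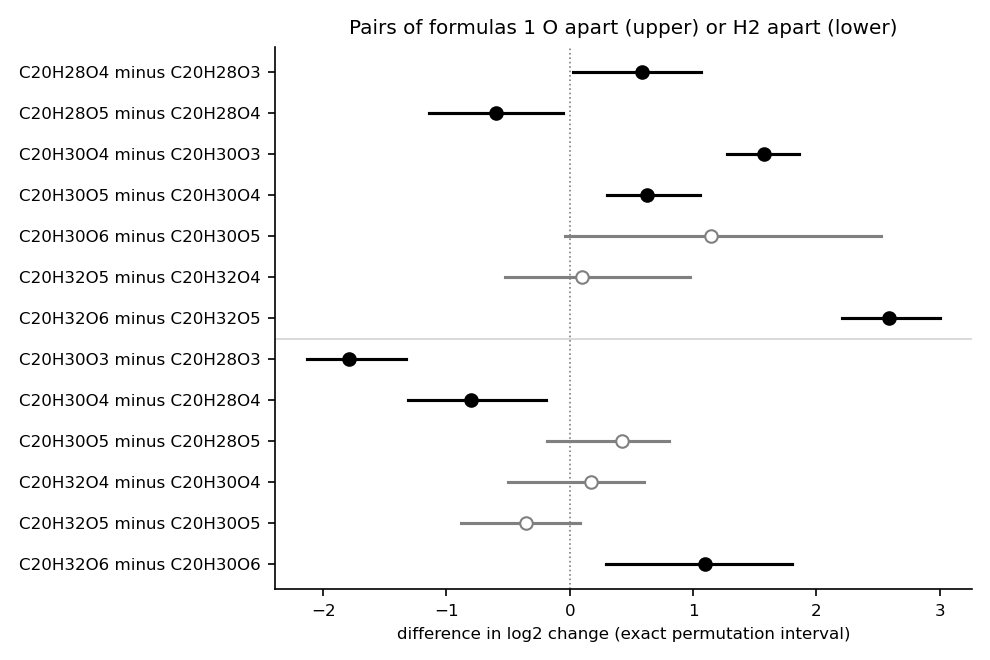
Difference between 2 formulas in their log2 change (horizontal axis, first formula minus second), with the exact permutation interval, for 7 pairs that differ by 1 oxygen and 6 that differ by H2. Filled points passed after adjustment, and C20H32O6 against C20H32O5 lies farthest from 0, at 2.59.

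A further 6 pairs differ by a molecule of water, the step from prostaglandin E2 or D2 to the cyclopentenones; the loss of water from an ion in the source gives the same spacing. For C20H32O5 over C20H30O4 the log2 ratio was -0.87 ± 0.21 in untreated and -0.60 ± 0.45 in streptomycin samples (difference 0.27, interval -0.56 to 0.89; exact permutation p = 0.343, adjusted p = 0.411). For C20H30O4 over C20H28O3 it was 0.75 ± 0.12 and 0.54 ± 0.09 (difference -0.21, interval -0.45 to 0.03; exact permutation p = 0.0571, adjusted p = 0.0857). None of the 6 passed, with an adjusted p = 0.0571 at the smallest (exact permutation). The 3 at the smallest p were C20H32O6 against C20H30O5 (2.24), C20H32O4 against C20H30O3 (1.75) and C20H30O6 against C20H28O5 (1.57).

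The same split by oxygen number was looked for in the formulas with 18 and 22 carbons. C18 formulas with 3 to 6 oxygens, those of hydroxy and epoxy acids made from oleic, linoleic and linolenic acid, had 29 rows. With 3 oxygens 8 of 9 C18 rows were lower and none higher, and with 6 oxygens all 6 were higher, where 52.4% of all rows were higher and 37% lower. Their sums went from 177 ± 31.3 to 67.2 ± 9.43 with 3 oxygens and from 8.72 ± 1.80 to 42.7 ± 3.56 with 6. The C18 sums with 4 and 5 oxygens were also higher, from 25.3 ± 2.56 to 35.7 ± 3.62 and from 8.03 ± 1.06 to 29.5 ± 6.81. Beside the C18 rows, 3 of 6 C20 rows with 3 oxygens were lower and 1 higher, and 5 of 7 with 6 oxygens were higher and 2 lower. The C22 formulas, which include oxidised docosahexaenoic acid, had 16 rows, of which 11 were lower and 3 higher. With 3 oxygens 2 of 2 C22 rows were lower, with a sum of 1.88 ± 0.913 in untreated and 0 in streptomycin samples. With 6 oxygens 2 of 3 were higher and 1 lower, and the sum went from 0.662 ± 0.501 to 3.19 ± 0.916. Unlike those of C18, the C22 sums with 4 and 5 oxygens were lower, from 8.72 ± 1.71 to 1.87 ± 0.581 and from 20.8 ± 8.86 to 7.78 ± 0.551. Over all oxygen numbers the C22 sum went from 32.02 ± 9.37 to 12.8 ± 0.594, that of C18 rows from 219 ± 30.04 to 175 ± 12.0, and that of C20 rows from 34.2 ± 3.02 to 37.2 ± 2.84. No difference between these lists was tested.

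**Figure D3:**
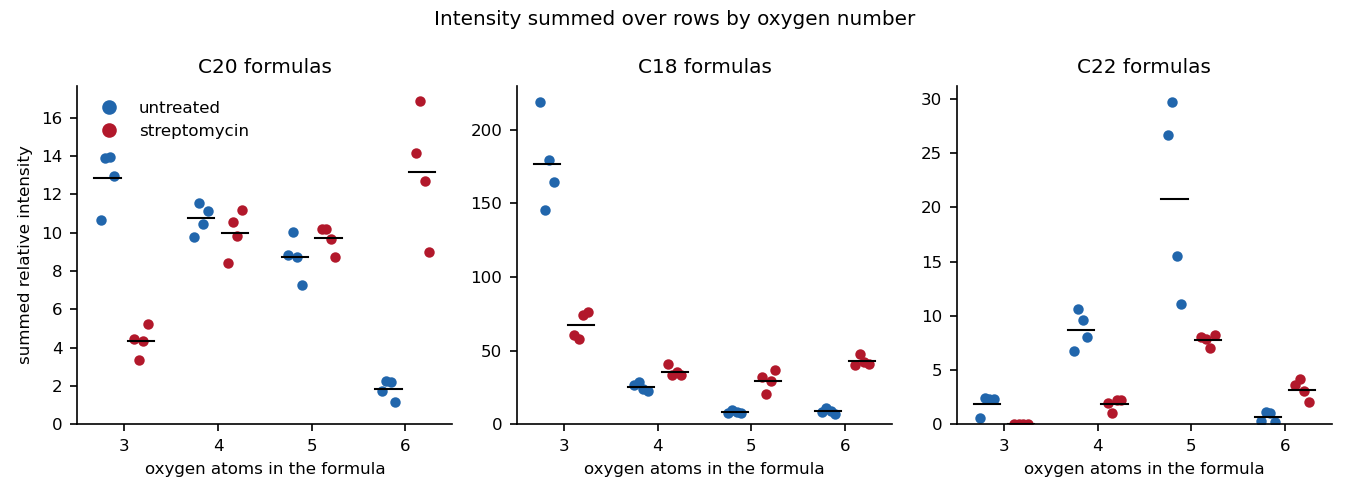
Relative intensity summed over the rows of C20, C18 and C22 formulas (linear axes from 0, scaled per panel) against the oxygens in the formula, with 1 point per sample and lines at the means of 4. C20 rows with 3 oxygens are lower and those with 6 higher in streptomycin samples, and those with 4 and 5 overlap.

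Precursors and related products of the pathway were matched for 7 of 15 formulas searched, by 8 rows, of which 3 were higher, 4 lower and 1 did not pass; of all rows 52.4% were higher, 37% lower and 89.5% called either way. Arachidonic acid, C20H32O2, the precursor of the series made by cyclooxygenases and lipoxygenases, appeared at 304.2403 Da only after streptomycin, at 7.14, 7.19, 5.39 and 6.21. The more saturated C20 acids were lower in those samples. Dihomo-gamma-linolenic acid, C20H34O2, the precursor of prostaglandin E1, went from 31.4, 28.2, 40.4 and 37.4 to 20.3, 20.7, 16.3 and 16.9 (limma log2 change -0.88 ± 0.15 SE, adjusted p = 0.000819). Eicosadienoic acid, C20H36O2, went from 50.3, 25.2, 34.6 and 31.8 to 11.8, 13.4, 12.9 and 12.7 (limma log2 change -1.44 ± 0.20 SE, adjusted p = 0.000245). The main row of eicosenoic acid, C20H38O2, went from 63.8, 43.4, 53.96 and 56.4 to 26.1, 31.1, 33.1 and 31.6 (limma log2 change -0.83 ± 0.14 SE, adjusted p = 0.000851). The groups did not overlap for any of these 3 acids. A second row of eicosenoic acid at the same mass, 310.2873 Da, appeared only after streptomycin, at 4.15, 4.72, 2.88 and 2.54. Eicosapentaenoic acid, C20H30O2, also the formula of the plant resin acid abietic acid, was at 6.90, 8.13, 9.96 and 10.5 in untreated and 7.72, 7.66, 6.26 and 6.66 in streptomycin samples, which overlap, and did not pass (limma adjusted p = 0.0943).

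Of the products outside the C20 grid, the formula of dinor-thromboxane B2, C18H30O6, a urinary metabolite that shares its formula with oxidised linolenic acid, was seen only after streptomycin, at 2.36, 3.28, 2.28 and 1.75 (342.2045 Da). The formula of 2-arachidonoylglycerol, C23H38O4, an endocannabinoid and store of arachidonic acid, was seen only before treatment, at 4.31, 3.94, 3.64 and 4.59 (378.2772 Da). The cysteinyl leukotrienes C4, D4 and E4, hydroxyheptadecatrienoic acid, the tetranor metabolite of prostaglandin E2, anandamide, docosahexaenoic acid and lysophosphatidylcholine 20:4 had no row within 3 ppm.

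**Figure D4:**
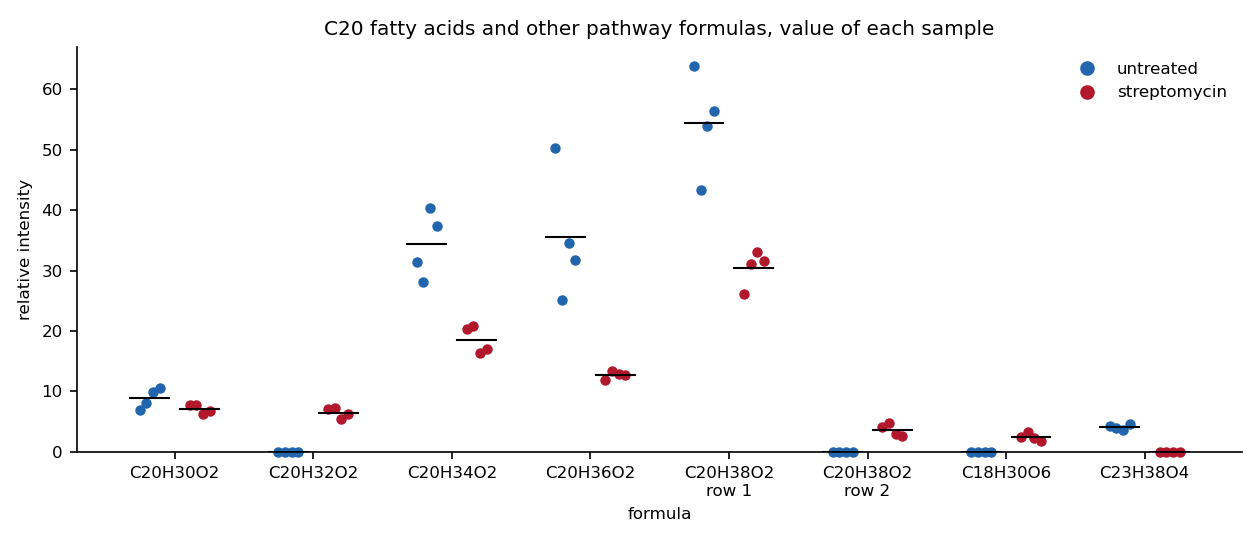
Relative intensity (linear axis from 0) of the 8 rows of C20 fatty acids and other pathway formulas, with 1 point per sample and lines at the means of 4. C20H32O2, the formula of arachidonic acid, is at 0 in untreated samples and between 5.39 and 7.19 in streptomycin samples.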

How the data were processed

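The authors deposited 1 table of relative intensities, a linear signal per neutral mass and acquisition, with 2 acquisitions for each of 4 untreated and 4 streptomycin samples. Per the labels' protocols each sample was measured in both ion modes; no label states what the signal is relative to and how modes were joined. The mean of both acquisitions was a sample's value, with 0 for an unlisted one. C20 formulas were matched within 3 ppm (pyteomics 5.0.1). Log2 values, 0 set to the lowest intensity, 0.1476, were fitted with limma 3.58.1 in R 4.3.3 (lmFit, eBayes, no block); the filter of 3 listed samples in either group kept all 2429 rows. Python 3.11.15 with scipy 1.17.1 ran the permutation tests. In simulated data for 539 rows with 200 changed, limma recovered 72% of 2-fold and 99% of 4-fold changes, with 6 false calls among 177. The simulation was modelled on rows listed in all samples and held no 0, so these rates do not cover rows listed in 1 group only. All matched rows are accounted for; values per sample are given for called rows listed in both groups, the most intense rows and the best-known formulas. The members, lists and tests were chosen with earlier results of these data known, and the water pairs and single-row pairs after the values here were seen.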

Additional observations from a re-analysis of the deposited data

Results flagged for a closer look

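Of 77 groups of 4 values checked for a sample far from the others (gap over range above the 95% limit, which chance passes in about 1 of 20), 10 stood out. In C20H30O3 untreated replicate 1 was low at 318.2196 Da (0, gap ratio 0.882) and in the sum (3.52, 0.876), and streptomycin replicate 4 was high in both (1.39, 0.849). Untreated replicate 2 was high at 350.2096 Da (2.28, 0.859). Untreated replicate 4 was low at 352.2251 Da (1.05, 0.918) and at 368.2200 Da and in the sum of C20H32O6 (0.796, 0.849 for both). In the sums, streptomycin replicate 4 was high for C20H30O4 (4.38, 0.879) and streptomycin replicate 2 low for C20H30O5 (3.81, 0.930). The C20H30O5 sum includes 350.2094 Da, where an unlisted acquisition counted as 0 lowers a streptomycin value. The log2 change of that row was -0.584, and -0.334 with the mean over listed acquisitions.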

How the results depend on the processing

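Counts of C20 rows were 11 higher and 8 lower; tolerances of 1, 2 and 5 ppm gave the same 25 rows. With the nearest row of each formula alone 4 were higher, and with rows summed 6 higher and 3 lower, from fewer features. Of rows in both groups, 2 higher and 2 lower as deposited became 0 and 6 on the calibrant scale, with 4 lower after division by total intensity, 1 after the median ratio and 4 with the mean over listed acquisitions. Formulas called lower went from 3 to 7 on the calibrant and 5 on the total-intensity scale. The median log2 change of all rows in both groups was -0.45 as deposited and -0.61, -0.08 and -0.85 on the total-intensity, median-ratio and calibrant scales. Leaving out each sample gave 11 to 11 rows higher and 8 to 9 lower, 2 to 2 and 2 to 3 in both groups, and 6 to 7 formulas higher and 3 to 4 lower. Deviations of same-numbered samples from their group means correlated at 0.04, 0.03, 0.11 and 0.12 over the 539 rows listed in all samples, so numbers were not taken as pairs. With the replicate block 11 rows and 6 formulas were higher, 8 and 3 lower. The methods' t-test on intensities called 11 higher and 8 lower, before and after Benjamini-Hochberg adjustment.

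With 1 for 0, 8 rows were higher and 7 lower; the calls at 354.2408 (0.199, limma adjusted p = 0.125), 368.2200 (-0.095, 0.575) and 372.2514 Da (0.371, 0.0682) were lost and 320.2353 Da was called (-0.558, 0.019). After the median ratio 8 formulas were higher and 2 lower. Changed signs: with 1 for 0, -0.019 at 316.2040, -0.117 at 318.2196 and 0.56 at 366.2044 Da; after the median ratio, 0.068 at 334.2145 and 0.11 at 336.2303 Da, and 0.14, 0.10, 0.13 and 0.20 for summed C20H28O3, C20H32O4, C20H28O5 and C20H32O5; on the calibrant scale, -0.072 and -0.244 for C20H28O4 and C20H30O5; leaving out samples, -0.206 (without untreated replicate 1) to 0.865 at 318.2196 Da and -1.349 to 0.048 (without streptomycin replicate 2) at 320.2353 Da. Pairs past the threshold were 8, and 0 with the second acquisition; with single rows C20H30O4 against C20H28O4 was 0.057 and C20H32O5 against C20H30O5 0.003, and leaving out samples C20H32O5 against C20H32O4 was -0.127 (without untreated replicate 4) to 0.216. With a sample left out or in a sign-flip test the smallest p is 0.0571 or 0.125, so no pair can pass. The causes were not tested. The number of ions is unknown, so depth limits could not be computed.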
